A study of Mus musculus with 6 samples.

Results

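The genes described here serve the folding, import and disposal of proteins in the endoplasmic reticulum (ER), together with the sensors of the unfolded protein response. They were chosen as a list of 40 gene symbols, 4 of sensors and transcription factors, 9 of degradation, 12 of folding, 11 of translocation and 4 of the signal peptidase. The choice was made with earlier results of these data known, so the shares given below are descriptions and not an independent test. All 40 were found among the 23152 genes that had a probe set annotated with a single symbol. Of these, 39 members passed the filter on dim genes and were tested among 13891 genes. Pdia5, a protein disulfide isomerase, did not pass and was not tested. It had 5.02, 5.55 and 5.54 log2 units in KO replicates 1 to 3 and 5.33, 5.27 and 5.49 in WT replicates 1 to 3, and the groups overlapped.

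The samples were regulatory T cells (Tregs), the CD4+ T cells that restrain immune responses, sorted by flow cytometry as CD4+CD25high cells from spleen. The KO group held 3 untreated male DJ-1-/- mice aged 45 weeks. The WT group held 3 untreated male DJ-1+/+ littermates of the same age, and every mouse was kept under specific-pathogen-free conditions. DJ-1 is a redox-responsive protein encoded by Park7, and it was missing from the whole animal, so cells other than Tregs lacked it too. Each mouse gave 1 Affymetrix Mouse Gene 2.0 ST array. Values are log2(intensity + 16), a scale on which differences of dim genes are understated, and each gene's value is the median of its probe sets. Differences are KO minus WT.

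Proteins bound for the cell surface or for secretion enter the ER through the Sec61 channel, lose their signal peptide, receive sugars and disulfide bonds, and are folded by chaperones. Proteins that fail to fold are moved back to the cytosol and degraded. When unfolded proteins build up, the sensors IRE1, PERK and ATF6 act through XBP1, ATF4 and the cleaved form of ATF6 to raise the chaperones and the degradation machinery. This response is best known from plasma cells, which secrete antibody in bulk, and it also accompanies the activation of T cells.

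The targeted gene followed the labels. Park7 had 6.06, 5.96 and 5.71 log2 units in KO replicates 1 to 3, against 9.48, 9.27 and 9.70 in WT replicates 1 to 3. It fell by 3.57 (SE 0.16, limma adjusted p = 2.06e-05). The Treg markers Foxp3, Il2ra, Ctla4, Ikzf2, Cd4 and Cd3e were all measured above the filter, and none of the 6 passed the test. KO replicate 1 stood apart from the other arrays. Its mean correlation with them was 0.951, against 0.957 to 0.964 for the others, and it lay at 40.9 on a first principal component (45.6% of the variance) on which the others lay between -17.8 and 0.12. Its median deviation from the WT mean over all tested genes was -0.12, against 0.0002 and -0.01 in KO replicates 2 and 3, and it was the lowest array for 38.2% of tested genes. The main counts of members below are therefore also given without it.

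No member passed the test at an adjusted p of 0.05, at which 38 genes of the array (0.274%) were called; that count was 11 without KO replicate 3, and 4, 4 and 7 without WT replicate 1, 2 or 3. The smallest adjusted p of a member was 0.265, that of Sdf2l1. Of the 39 tested members 34 were lower in KO than in WT, or 87.2%, against 59.7% of all tested genes. The median difference of the members was -0.24, with a range of -0.87 to 0.08, and that of all tested genes was -0.05. At an unadjusted p of 0.05, 9 members were lower in KO, or 23.1% beside 7.67% of all tested genes, and 0 were higher, beside 2.99%. These 9 were Atf6, Derl1, Pdia6, P4hb, Calr, Sdf2l1, Hyou1, Ssr3 and Ssr4. In 15 members every KO array lay below every WT array, or 38.5% beside 11.3% of all tested genes, and the reverse held for 0 members, beside 6.10%. With 3 arrays a group an exact permutation test of a single gene cannot go below 0.10, so single members rest on limma's shared estimate of the spread.

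Without KO replicate 1, the median difference of the members was -0.14 beside -0.01 for all tested genes. Then 30 members were lower in KO, or 76.9% beside 51.7% of all tested genes. The count at an unadjusted p of 0.05 and lower in KO was then 6, or 15.4% beside 6.72% of all tested genes, of which 5 (Derl1, Pdia6, Calr, Sdf2l1 and Ssr3) were among the 9 and Edem2 was added. With WT replicate 2 left out instead, this count was 5. Without KO replicate 1, 1 member, Sec63, was higher at an unadjusted p of 0.05, beside 4.55% of all tested genes. The 15 members whose groups did not overlap remained so by construction, beside 15.3% of all tested genes, and 3 members were higher with no overlap, beside 13.7%. Again 0 members passed the adjusted test, and the smallest adjusted p was 0.217.

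**Figure D1:**
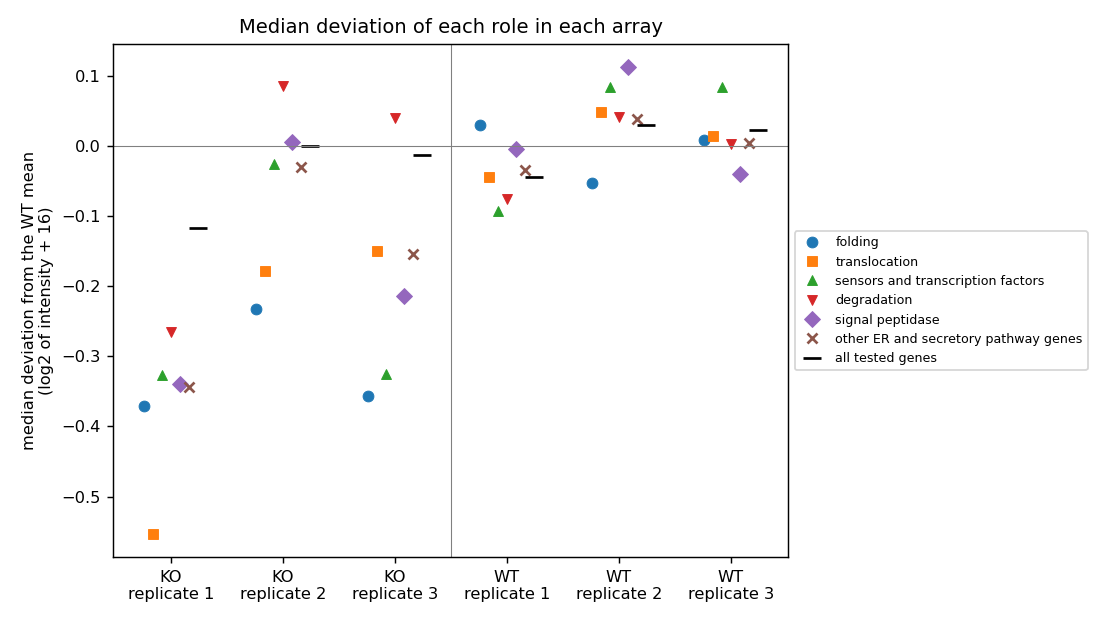
Median deviation from the WT mean, in log2(intensity + 16) units, of the tested genes of each role in each of the 6 arrays (KO arrays left, WT arrays right); each symbol is 1 role and the black dash is all tested genes. The folding genes lay at -0.37, -0.23 and -0.36 in KO replicates 1 to 3, while the translocation genes lay lowest in KO replicate 1, at -0.55.

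The roles differed in how their deviation was spread over the KO arrays, as the plot of role medians shows. Folding genes had median deviations of -0.37, -0.23 and -0.36 in KO replicates 1 to 3, against 0.03, -0.05 and 0.01 in WT replicates 1 to 3. The 3 KO arrays thus lay together and below all 3 WT arrays. Translocation genes had -0.55, -0.18 and -0.15 in the KO arrays, against -0.04, 0.05 and 0.01 in the WT arrays. KO replicate 1 was the lowest array for 10 of the 11 translocation genes and for 25 of all 39 members (64.1%). For the folding genes it was the lowest in 5 of 11, and KO replicate 3 was the lowest in another 5. Differences between roles were not tested.

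The folding genes were lower in KO in 11 of 11 tested members, with a median difference of -0.26 (-0.27 without KO replicate 1). In 9 of the 11 the groups did not overlap (11.3% of all tested genes, lower in KO). At an unadjusted p of 0.05, 5 of the 11 were lower, beside 7.67% of all tested genes, and 3 without KO replicate 1, beside 6.72%. Some ER chaperones are not among the members and did not share this pattern. Hspa5, the gene of BiP, had a difference of -0.04 (0.03 without KO replicate 1) and Dnajc3 0.09 (0.13). Hsp90b1 had -0.24 (-0.03) and Dnajb9 -0.58 (0.05). In all of these the groups overlapped. Dnajb11 and Sil1, which are not members either, did share the pattern. They had differences of -0.21 (-0.25 without KO replicate 1) and -0.26 (-0.27), with no overlap. The sequences upstream of the start of the members, folding genes and others, bear on how the unfolded protein response reaches them. The ER stress response element (ERSE, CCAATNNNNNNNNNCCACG) is the element through which ATF6, with NF-Y at its CCAAT part, acts on chaperone genes, and XBP1 binds it too. RefSeq promoter windows of the GRCm38.p6 assembly, from 250 bases before to 50 after the start, were at hand for 32 of the 40 members. An exact ERSE on either strand lay in 7 of these 32 (21.9%), against those of 37 of 27025 genes (0.137%). The related ERSE-II (ATTGGNCCACG) lay in 1 of the 32, Herpud1, against 0.0444% of the 27025 genes, and no window of a member held the XBP1 element TGACGTGG, against 0.714% of those genes. The 8 elements are shown because they mark the members that carry an exact match to the canonical sequence of this response. Derl3, Syvn1 and Herpud1 among them are degradation genes. Each is printed 5′ to 3′ on the gene's strand with the element in capitals. A capital run starting with CGTGG is an ERSE on the opposite strand.
Calr, chr8:84847055-84847113, minus strand: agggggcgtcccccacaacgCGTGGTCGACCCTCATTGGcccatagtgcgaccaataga
Canx, chr11:50325780-50325838, minus strand: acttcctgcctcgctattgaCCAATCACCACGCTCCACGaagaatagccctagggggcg
Creld2, chr15:88819500-88819558, plus strand: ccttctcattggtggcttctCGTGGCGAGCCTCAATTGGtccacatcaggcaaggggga
Derl3, chr10:75893222-75893280, plus strand: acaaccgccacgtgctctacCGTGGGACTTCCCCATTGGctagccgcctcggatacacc
Ero1lb (now Ero1b), chr13:12565662-12565720, plus strand: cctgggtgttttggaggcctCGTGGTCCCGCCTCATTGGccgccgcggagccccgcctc
Pdia6, chr12:17266471-17266529, plus strand: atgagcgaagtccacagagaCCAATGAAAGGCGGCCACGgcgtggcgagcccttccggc
Syvn1, chr19:6046512-6046570, plus strand: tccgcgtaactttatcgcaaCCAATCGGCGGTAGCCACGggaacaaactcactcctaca
Herpud1 (ERSE-II), chr8:94386357-94386407, plus strand: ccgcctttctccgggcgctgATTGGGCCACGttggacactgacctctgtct
The element began between 201 bases (Ero1lb) and 44 bases (Syvn1) before the annotated start. The 8 members with an ERSE or ERSE-II were all lower in KO, with a median difference of -0.17 and a range of -0.45 to -0.01. The 23 tested members whose window held neither as an exact match had a median of -0.20, with 18 lower. Without KO replicate 1 the order of these medians turned, to -0.15 with an element and -0.11 with neither. The difference between the medians was not tested. The group with neither is not free of similar sequences. With 1 mismatch allowed, an ERSE lay in 13 of the 32 members with a window, against 1.72% of the 27025 genes. Of the group with neither, Derl2, Pdia3, Pdia4, Sec61g and Sel1l held such an ERSE. The 8 members without a window were in neither group.

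Calr encodes calreticulin, the soluble lectin chaperone that binds newly made glycoproteins and stores calcium. It had 11.48, 11.46 and 11.29 log2 units in KO replicates 1 to 3, against 11.90, 11.76 and 11.93 in WT replicates 1 to 3. The lowest WT array lay above the highest KO array by more than the spread within either group. The difference was -0.45 (SE 0.14), or 0.730 of the WT level, with a limma adjusted p of 0.279. It was -0.49 without KO replicate 1, and all 11 of its probe sets were lower in KO. Canx encodes calnexin, the membrane-bound partner of calreticulin. It had 11.29, 11.71 and 11.55 in KO, against 11.83, 11.72 and 11.79 in WT. The groups barely separated, since KO replicate 2 lay just under WT replicate 2, and the difference of -0.26 (SE 0.15, limma adjusted p = 0.580) was -0.15 without KO replicate 1.

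Sdf2l1 encodes a partner of the chaperone BiP and is a known target of the unfolded protein response. It had 8.44, 8.49 and 8.04 in KO, against 8.89, 8.78 and 8.91 in WT. The groups did not overlap, with KO replicate 3 the lowest. The difference was -0.54 (SE 0.16, limma adjusted p = 0.265) and -0.60 without KO replicate 1, and all 5 probe sets were lower in KO. Hyou1 encodes the large chaperone that exchanges nucleotide on BiP. It had 8.35, 8.73 and 8.57 in KO, against 8.92, 9.09 and 8.86 in WT. All KO arrays lay below all WT arrays, KO replicate 1 lowest, with a difference of -0.41 (SE 0.15, limma adjusted p = 0.365) and 19 of 23 probe sets lower.

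The protein disulfide isomerases form and rearrange disulfide bonds. Pdia6, an isomerase that also acts on the sensor IRE1, had 8.23, 8.30 and 8.30 in KO, against 8.75, 8.62 and 8.73 in WT. The 3 KO arrays lay within 0.1 log2 units of one another and below WT, and the difference was -0.42 (SE 0.13, limma adjusted p = 0.281). P4hb, the founding isomerase of the family, had 8.94, 8.99 and 9.08 in KO, against 9.33, 9.22 and 9.38 in WT. Its groups did not overlap, with a difference of -0.31 (SE 0.13, limma adjusted p = 0.444). Pdia3, which works on glycoproteins with calreticulin and calnexin, had 11.44, 11.47 and 11.30 in KO, against 11.69, 11.71 and 11.57 in WT. Its groups did not overlap either, with a difference of -0.26 (SE 0.13, limma adjusted p = 0.547). Pdia4, a larger isomerase, had 10.74, 10.74 and 10.49 in KO, against 10.83, 10.80 and 10.92 in WT. The separation was narrow and the difference -0.19 (SE 0.14, limma adjusted p = 0.657).

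Creld2, a secreted ER stress protein, had 8.93, 8.96 and 8.70 in KO, against 9.04, 9.09 and 8.99 in WT. The difference was -0.18 (SE 0.14, limma adjusted p = 0.682), with no overlap and 11 of 12 probe sets lower. The last 2 folding genes overlapped between groups. Ero1lb, the oxidase that recharges the isomerases, was lower by 0.17 on average (difference -0.17, limma adjusted p = 0.792). Manf, a stress-induced secreted factor, had a difference of -0.10 (limma adjusted p = 0.834), which was 0.18 with the mean of its probe sets.

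**Figure D2:**
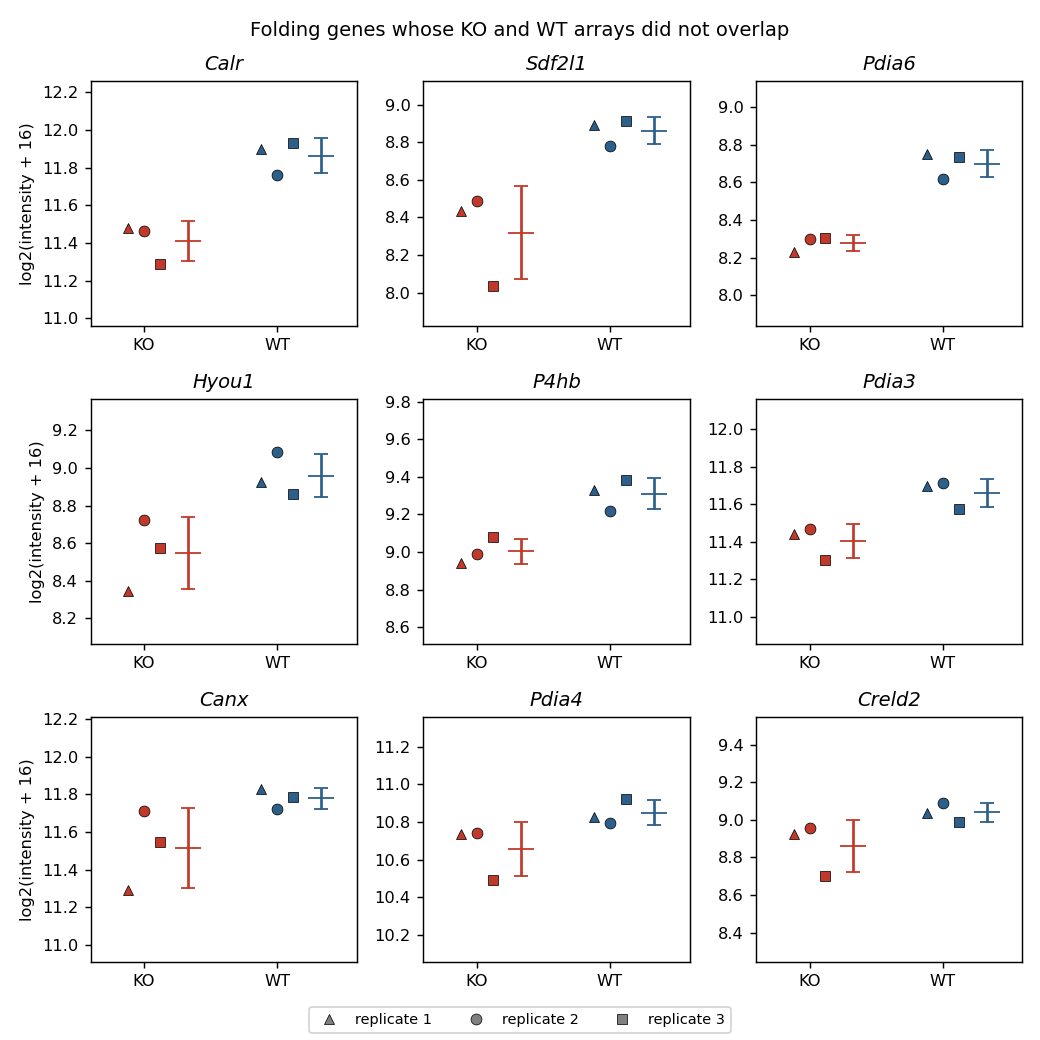
Values in log2(intensity + 16) units, on axes that do not start at 0, of the 9 folding genes whose groups did not overlap, KO left of WT. Symbols mark the replicate and the bars give the mean and SD of the 3 arrays of each group; the gap between the groups is wide for Pdia6 and narrow for Canx, Pdia4 and Creld2.

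Translocation genes import proteins into the ER. Of 11 members 10 were lower in KO, with a median difference of -0.26, but it was -0.12 without KO replicate 1, with 8 of 11 lower. In 3 of the 11 the groups did not overlap, or 27.3% beside 11.3% of all tested genes (lower in KO). All 3 are among the 4 genes of the translocon-associated protein complex, which helps some signal sequences through the channel. Ssr3 had 7.62, 8.55 and 8.07 in KO, against 8.91, 8.83 and 8.52 in WT, where KO replicate 2 lay just above WT replicate 3. Its difference was -0.67 (SE 0.23, limma adjusted p = 0.328), with 5 of 9 probe sets lower. Ssr4 had 9.54, 9.71 and 9.70 in KO, against 9.83, 10.11 and 10.10 in WT. The groups did not overlap, and the difference was -0.36 (SE 0.14, limma adjusted p = 0.402).

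Ssr1 had 9.89, 9.97 and 9.99 in KO, against 10.15, 10.14 and 10.34 in WT, with no overlap and all 9 probe sets lower. The difference was -0.26 (SE 0.13, limma adjusted p = 0.547). Ssr2 had 10.97, 11.26 and 11.27 in KO, against 11.46, 11.44 and 11.43 in WT, and KO replicate 1 was the lowest array. The groups did not overlap, and the difference of -0.27 (SE 0.14, limma adjusted p = 0.547) was -0.17 without that array, with all 7 probe sets lower.

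The members of the channel itself and of the signal recognition particle overlapped between groups. Sec61a1, the pore subunit, had a difference of -0.26 (limma adjusted p = 0.613), and the small subunits Sec61b and Sec61g had -0.003 and -0.07. Both small subunits were dim. Sec61b was at 6.01 log2 units in KO and in WT, near the filter value of 5.90, and Sec61g at 6.37 in KO and 6.43 in WT. Sec61g rests on 2 probe sets, and 5 further probe sets share other symbols. Srp14 and Srp9, which together arrest translation until the ribosome docks, had -0.37 and -0.33, and Srp9 had -0.09 without KO replicate 1. Sec62, which serves import after translation, had -0.19 with that array and 0.06 without it. Sec63, the partner that recruits BiP to the channel, had 8.45, 9.31 and 9.47 in KO, against 8.89, 9.18 and 9.05 in WT. Here KO replicate 1 lay lowest and the other KO arrays highest, so the difference was 0.04 with all arrays and 0.35 without KO replicate 1 (limma adjusted p = 0.408). KO replicate 1 was the lowest array in 16 of its 19 probe sets.

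The signal peptidase removes the signal peptide from imported proteins. All 4 members were lower in KO, with a median of -0.16 (-0.08 without KO replicate 1). Sec11c, a catalytic subunit, had 8.35, 9.28 and 9.17 in KO, against 9.49, 9.55 and 9.28 in WT. KO replicate 1 lay far below the rest and KO replicate 2 lay at the level of WT replicate 3. Sec11c counts among the 15 members without overlap only by the margin between these 2 arrays, at 9.27983 and 9.28002. The difference of -0.51 (SE 0.23, limma adjusted p = 0.484) was -0.21 without KO replicate 1. Spcs2, Spcs1 and Spcs3, accessory subunits, had overlapping groups and differences of -0.24, -0.09 and -0.08.

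**Figure D3:**
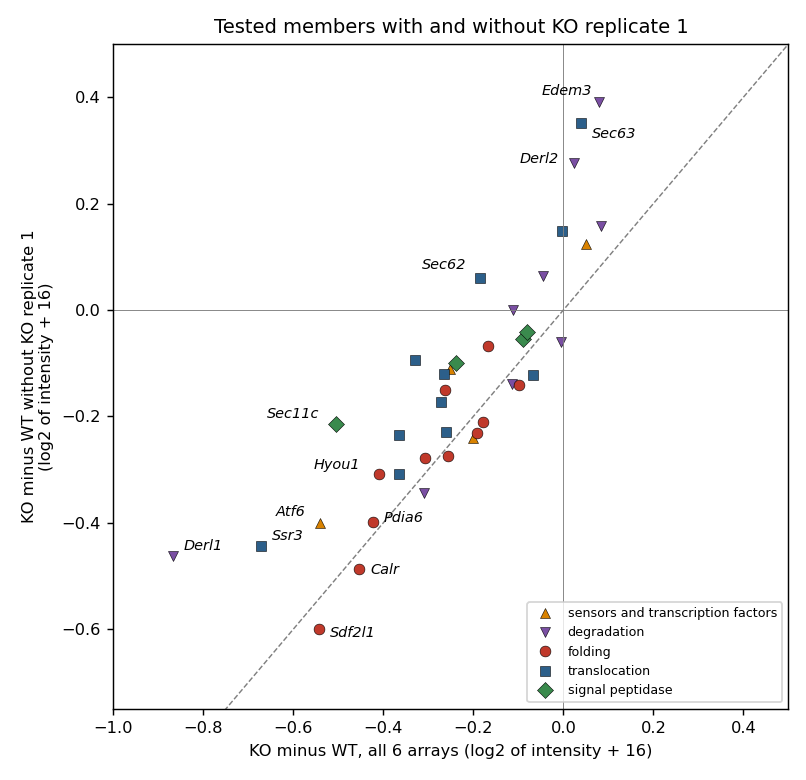
Difference KO minus WT, in log2(intensity + 16) units, of each of the 39 tested members with all 6 arrays (horizontal axis) and without KO replicate 1 (vertical axis), with the role shown by symbol and colour and equality by the dashed line. Folding genes such as Calr, Pdia6 and Sdf2l1 lie near the line, while Derl1, Sec11c, Sec63 and Edem3 lie well above it.

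The sensors and transcription factors had a median difference of -0.23 (-0.18 without KO replicate 1), with 3 of 4 lower and 0 separated. Atf6, the membrane-bound sensor that is cleaved into a transcription factor, had 7.89, 8.44 and 8.17 in KO, against 8.41, 8.80 and 8.92 in WT. KO replicate 2 lay just above WT replicate 1, and the difference was -0.54 (SE 0.19, limma adjusted p = 0.348), with 16 of 17 probe sets lower. Xbp1, the transcription factor made active when IRE1 splices its RNA, had 10.62, 10.64 and 10.35 in KO, against 10.84, 10.84 and 10.53 in WT. The groups overlapped, the difference was -0.20 (SE 0.15, limma adjusted p = 0.682), and its spliced form was not measured separately here. Ern1, the gene of IRE1, had 7.78, 8.36 and 8.04 in KO, against 8.23, 8.25 and 8.46 in WT, a difference of -0.25 (SE 0.17, limma adjusted p = 0.643). Eif2ak3, the gene of PERK, which slows translation, had a difference of 0.05 with a 95% interval of -0.26 to 0.36.

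Degradation genes were mixed, with a median difference of -0.05 (0.0003 without KO replicate 1 and 0.01 after quantile normalization), that of all tested genes being -0.05 (-0.01 without that array). Derl1, a derlin that helps to carry misfolded proteins out of the ER, had the largest difference among the tested members. It had 8.98, 10.18 and 10.21 in KO, against 10.72, 10.68 and 10.58 in WT. KO replicate 1 lay over 1 log2 unit below every other array, yet the other KO arrays also lay below all WT arrays. The difference was -0.87 (SE 0.29, limma adjusted p = 0.324) with all arrays and -0.46 (limma adjusted p = 0.223) without KO replicate 1. Edem2, which trims mannose and marks glycoproteins for disposal, had 9.19, 9.01 and 9.16 in KO, against 9.25, 9.46 and 9.58 in WT. The groups did not overlap, and the difference was -0.31 (SE 0.14, limma adjusted p = 0.487).

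The other 7 degradation genes overlapped between groups. Syvn1, the ubiquitin ligase of the pathway, and its partner Sel1l had differences of -0.11 and -0.05, which were 0.0003 and 0.06 without KO replicate 1. Herpud1, a stress-induced scaffold of that complex, had -0.01 with a 95% interval of -0.33 to 0.32. The derlin Derl3 had -0.12, while Derl2 had 0.02 and 0.28 without KO replicate 1. Derl3 lay near the filter value of 5.90, at 6.10 log2 units in KO and 6.21 in WT. Edem1 and Edem3, relatives of Edem2, had 0.08 each. Edem3 had 7.82, 8.78 and 8.72 in KO, against 8.05, 8.67 and 8.37 in WT, with KO replicate 1 lowest and the other KO arrays highest.

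**Figure D4:**
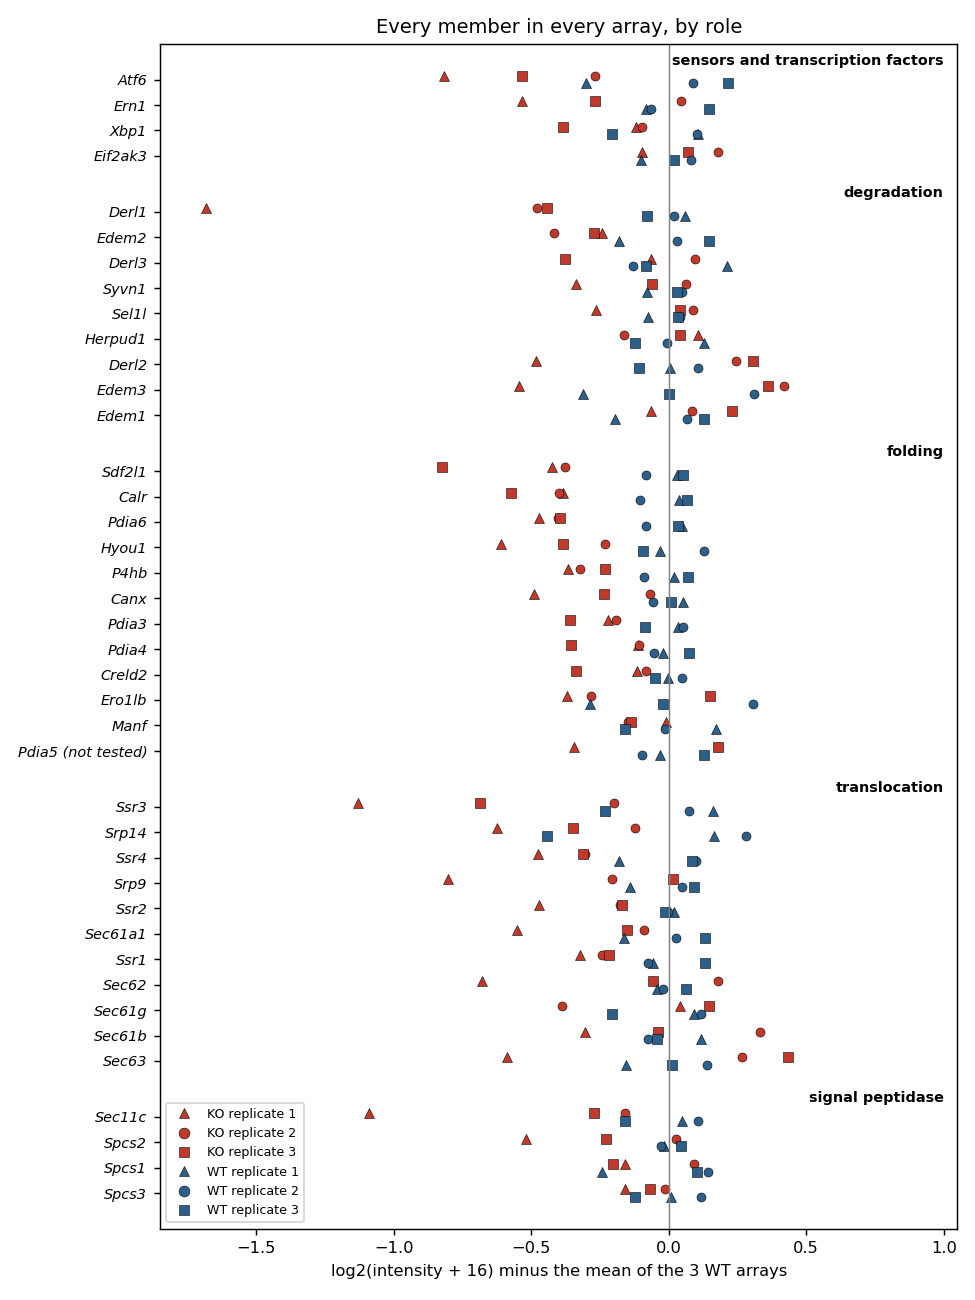
Value of each of the 40 members in each array minus the mean of its 3 WT arrays, in log2(intensity + 16) units, with members grouped by role, KO arrays in red and WT arrays in blue, and the replicate shown by the symbol. Most red symbols of the folding genes lie left of 0, and KO replicate 1 (red triangles) lies far to the left for Derl1, Ssr3 and Sec11c.

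Single probe sets, each reading about an exon, gave a second view of the same arrays. The members had 502 probe sets, between 2 and 23 per member, and 370 of them (73.7%) were lower in KO, against 53.0% of all 269751. At an unadjusted p of 0.05, 45 (8.96%) were lower, beside 4.37% of all probe sets, and 4 were higher, beside 3.23%. Over all probe sets 3 (0.00111%) passed an adjusted p of 0.05, and 0 of these were of members, whose smallest limma adjusted p was 0.510. Calr, Canx, Pdia4, Sdf2l1, Ssr1, Ssr2 and Sec61g, the last with 2 probe sets, had every probe set lower in KO. Derl2 had 13 of 18 lower, although its gene value was not, and its difference was -0.18 with the mean of its probe sets and -0.57 with bright probe sets only.

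**Figure D5:**
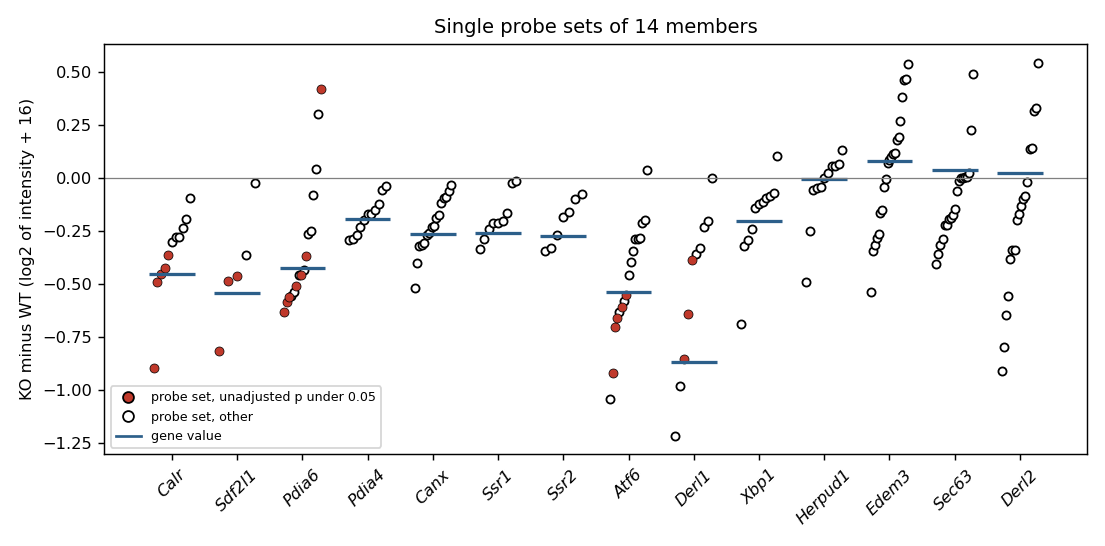
Differences KO minus WT of single probe sets, in log2(intensity + 16) units, for 14 members picked after their values were seen to show even and uneven patterns; each point is 1 probe set, red at an unadjusted p under 0.05, and the blue line is the difference of the gene value. Every point of Calr, Sdf2l1, Pdia4, Canx, Ssr1 and Ssr2 lies below 0, while the points of Edem3 and Derl2 lie on both sides.

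Other genes of the ER and secretory pathway were read from a list of 88, of which 83 were tested. Here 70 were lower in KO, or 84.3% beside 59.7% of all tested genes, with a median of -0.15. Without KO replicate 1 the median was -0.10 and 56 were lower, or 67.5% beside 51.7%. With all arrays 0 passed the adjusted test. At an unadjusted p of 0.05, 6 were lower, or 7.23% beside 7.67% of all tested genes, and 0 were higher; without KO replicate 1 the 6 became 2, or 2.41% beside 6.72%. With no overlap 18 were lower, or 21.7% beside 11.3%, and 1 was higher, beside 6.10%. Without KO replicate 1 these were 22, or 26.5% beside 15.3%, and 5, beside 13.7%. The lowest p belonged to Fkbp2, an ER prolyl isomerase, at -0.51 (SE 0.14, limma adjusted p = 0.246). Tmbim6, an ER membrane protein that dampens IRE1, followed at -0.45 (limma adjusted p = 0.296), then Mogs, the first glucosidase of glycan trimming, at -0.45 and Sec24d, a cargo adaptor of COPII vesicles, at -0.38. In the other direction Yod1, a deubiquitinase of the degradation pathway, had 7.67, 7.62 and 7.69 in KO, against 7.39, 7.37 and 7.46 in WT. That was a difference of 0.25 (SE 0.13, limma adjusted p = 0.535) with no overlap. Ufd1l, a partner of the p97 ATPase, had 0.23, Selk, an ER selenoprotein, 0.12 and Srp68, a subunit of the signal recognition particle, 0.10.

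Markers of other spleen cells were read beside these values, since plasma cells are rich in ER proteins. The summed intensity of the plasma cell list (8 of 9 genes measured, 6 of them tested) ran from 1567 to 1902 in KO, against 1947 to 2519 in WT. It was thus lower in every KO array. Such a sum is weighted toward its brightest genes, here Irf4, Prdm1 and Slamf7, with WT means of 9.60, 9.07 and 9.02 log2 units. It is therefore no measure of plasma cells alone. Pou2af1 was at -0.61 (limma adjusted p = 0.234) and Prdm1 at -0.92 (limma adjusted p = 0.362), both also used by T cells. Igj was at -0.85 (limma adjusted p = 0.362) and Irf4, likewise used by T cells, at -0.41 (limma adjusted p = 0.365). These 4 of the 6 tested genes were lower at an unadjusted limma p of 0.05, or 66.7% beside 7.67% of all tested genes. The other 2, Sdc1 and Slamf7, were higher in KO. Without KO replicate 1 the 4 became 2, beside 6.72%. No marker has a true 0 on this scale; Tnfrsf17 lay under the filter, and Sdc1 was at 6.09 ± 0.30 log2 units in KO and 6.03 ± 0.40 in WT (SD, n = 3 each), near the filter value of 5.90. The macrophage list summed to 609 to 715 in KO, against 783 to 1106 in WT. Vcam1 of that list fell by 1.15 (limma adjusted p = 0.0343; with KO replicate 1 left out, -1.18 with an adjusted p of 0.0521), and C1qc was at -0.47. The NK and CD8 list summed to 1831 to 2277 in KO, against 2368 to 2994 in WT, with Ncr1 at -0.85 and Nkg7 at -0.57. Its 8 tested members were split, however, 4 lower and 4 higher with a median of 0.01, and Klrb1c was higher in every KO array (0.28, limma adjusted p = 0.552). The B cell list summed to 1048 to 1201 in KO, against 1028 to 1455 in WT, with Cd79b at -0.17 and Cd79a at -0.23. The dendritic cell list summed to 355 to 488 in KO, against 464 to 545 in WT, with Bst2 at -0.35 and Zbtb46 at -0.28. The Treg list summed to 27761 to 29132 in KO, against 29857 to 30068 in WT, with Cd3e at -0.19 and Ikzf2 at -0.20. Foxp3, the defining marker, was slightly higher in every KO array (0.06, limma adjusted p = 0.886), and Il2ra and Ctla4 had differences of -0.0013 and -0.0050. The part of any of these cells in the differences of the ER genes was not tested, and in sorted bulk RNA fewer cells of a type and less RNA per cell cannot be told apart.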

How the data were processed

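Per the labels' protocols and the submitters' processing notes, the deposited values are linear intensities per exon-level probe set, made by the authors with PLIER in Affymetrix Expression Console 1.4. Background correction and normalization between arrays are not given in the sources used here. Groups came from the genotypes in the labels, with a mouse per array. Intensities were taken as log2(intensity + 16). Of 269751 probe sets, 233753 had 1 symbol, and a gene's value is their median. Genes under the 40th percentile of mean value (5.90) were left out. The difference KO minus WT was fitted with limma 3.58.1 (R 4.3.3, two-sided) and p-values adjusted by Benjamini-Hochberg over 13891 genes, or over all probe sets. The fit was tested on simulated data. Members and lists were chosen with earlier results of these data known. Every member is named. Of the other pathway genes, those past the threshold or otherwise the 4 per direction with the smallest p are named, and of each marker list those past the threshold and the 2 with the smallest p. Genes named beyond this rule were chosen after their values were seen. They are Sdc1, Tnfrsf17, Igj, Irf4, Slamf7, Klrb1c, the Treg markers, Hspa5, Hsp90b1, Dnajb9, Dnajc3, Dnajb11 and Sil1. Listed genes without a probe set of 1 symbol were not analysed here. Alternatives were pseudocounts of 1 and 64, 2 filters, averaging probe sets, using bright ones alone, centring arrays or normalizing them by quantiles, array weights, an unmoderated test, an adjusted p of 0.10, a replicate block and leaving out each array. The number of arrays limits precision.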

Additional observations from a re-analysis of the deposited data

How the results depend on the processing

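No member passed under any alternative run; the smallest limma adjusted p of a member was 0.0913 (Sdf2l1, array weights). The count of genes called over the whole array, 38, became 60 with the mean of probe sets, 125 with array weights, 74 at an adjusted p of 0.10, 0 in the unmoderated test, 67 with the replicate number as a block and 4 to 37 with 1 array left out. Same-numbered arrays correlated at 0.15, 0.17 and 0.01 in their deviations, against -0.19 to 0.09 for differently numbered arrays. No pairing is stated, and the main fit did not take the replicate numbers as pairs. Whether they are pairs was not tested. The block changed no call of a member. The 9 members lower at an unadjusted p of 0.05 became 14 with a pseudocount of 64 and 5 to 10 with 1 array left out. Members higher at that p numbered 0 to 1, and those higher without overlap 0 to 3, with 1 array left out, and the second count was 1 after quantile normalization. Of 695 member values under alternatives, 658 kept their direction, and 26 of 39 members kept it throughout. With the mean of probe sets the sign turned for Eif2ak3 (-0.011), Derl2 (-0.18), Manf (0.18) and Sec63 (-0.10), and the difference of Edem1 became -0.00754. With bright probe sets only it turned for Derl2 (-0.57) and Sec63 (-0.093). Quantile normalization turned Herpud1 (0.025), Sel1l (0.013) and Sec61b (0.023), median centring Herpud1 (0.030) and Sec61b (0.032), array weights Sel1l (0.024) and Sec61b (0.078), and with the pseudocount of 64 the difference of Sec61b became 0.00346. With 1 array left out, the differences ran from -0.015 to 0.12 for Eif2ak3, -0.067 to 0.074 for Herpud1, -0.11 to 0.063 for Sel1l, -0.20 to 0.00027 for Syvn1, -0.013 to 0.16 for Edem1, -0.091 to 0.39 for Edem3, -0.12 to 0.28 for Derl2 and -0.22 to 0.015 for Derl3. They ran from -0.17 to 0.15 for Sec61b, -0.17 to 0.093 for Sec61g, -0.37 to 0.060 for Sec62 and -0.16 to 0.35 for Sec63. The causes were not tested. The folding genes kept a median between -0.23 and -0.33 under every alternative run.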
